A study of Mus musculus with 8 samples.

Results

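The genes described here are 35 genes of glycolysis and of the response to hypoxia-inducible factor (HIF), out of 22609 genes in a count table of mouse islet RNA. They were chosen by symbol from a list of 36 names, in which Pkm and Pkm2 name the same gene, present in the table as Pkm2. By role they were 12 glycolytic enzymes, 3 PFKFB enzymes, 2 transporters, 3 HIF subunits, 2 HIF hydroxylases and 13 other HIF targets. The filter on low counts kept 34 of the 35 among 15041 genes tested; the gene that failed it was Eno1.

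Glycolysis splits glucose into pyruvate in the cytosol, and in islet beta cells it couples the glucose level of the blood to the secretion of insulin. HIF is a pair of proteins, an alpha subunit (Hif1a or Epas1) and Arnt. When oxygen is plentiful, the prolyl hydroxylases of the Egln family mark the alpha subunit for breakdown, and when it is scarce the pair binds the short motif ACGTG or its sister GCGTG in DNA and raises many glycolytic genes. Sirt6, a chromatin deacylase, has been described in mouse embryonic stem cells and fibroblasts as a co-repressor of HIF1A at glycolytic genes.

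The mice were males of 8 to 9 weeks on a mixed background, and their islets made up 4 groups of 2 libraries. BKO islets were MIP1-CreERT Sirt6 f/f, in which an insulin promoter drives a tamoxifen-inducible Cre in beta cells, and were taken 2 weeks after tamoxifen. Their controls were MIP1-CreERT Sirt6 f/+ (replicate 1) and MIP1-CreERT Sirt6 +/+ (replicate 2). EKO islets were Ngn3-Cre Sirt6 f/f, in which Cre acts from the endocrine progenitor on, and their controls were Ngn3-Cre Sirt6 +/+. All 4 groups thus carried a Cre, and all islets spent 4 h in culture with 10% serum before RNA was taken. Whether tamoxifen was also given to the controls is not in the labels. Separate animals are certain, by their differing genotypes, for the BKO controls alone, so p-values speak of the spread among the libraries alone, which may be technical.

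Reads counted to genes numbered 37302246 to 44442165 per library in the BKO model and 22330252 to 23673180 in the EKO model, and levels are given as CPM, a gene's reads per 1000000 counted reads, scaled by TMM. Sirt6 was at 18.8 and 12.6 CPM in control islets of the BKO model and 16.8 and 22.8 in BKO islets, and at 24.4 and 17.0 in control islets of the EKO model and 24.2 and 21.6 in EKO islets. That gene-level count takes in every exon and the labels do not name the floxed ones, so it does not check the deletion, and the groups are named by their labels. Ins2 ran from 73897 to 181440 CPM, so the islet label held in every library. Replicates differed more in the EKO model, the chi-square over its degrees of freedom being 228 for its controls and 131 for EKO against 70.9 for the BKO controls and 90.7 for BKO. The EKO-model libraries numbered 1 stood apart in markers of other cells: 16 acinar markers summed to 8296 CPM in EKO control replicate 1 and 2237 in EKO replicate 1, against 85.9 to 821 in the other 6 libraries. The 8 stellate and fibroblast markers summed to 2425 and 999 CPM in the same libraries against 35.1 to 297 elsewhere. In such bulk RNA, fewer cells of a type and less RNA per cell cannot be told apart.

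Promoters with a match to a motif are shown for 7 members. Of these, 5 had a wide spread between EKO-model replicates (Car9, Slc16a3, Adm, Egln3 and P4ha1). The other 2 had the smallest p in a comparison (Bnip3 and Pfkfb4). They are not every such member, as Pfkfb3 differed 11.1-fold between the EKO control replicates and P4ha1 3.27-fold. Eno2 had the smallest p in EKO and no match. Ndrg1, with the smallest p in BKO, had no promoter to search. RefSeq promoters of build GRCm38.p6, 250 bases before to 50 after the start, were found for 31 of the 35 members, and not for Slc2a3, Epas1, Bnip3l and Ndrg1. Each line is read 5′ to 3′ on the strand of the gene, and the capitals mark 1 match to a motif. The motifs were ACGTG, which reads CACGT from the opposite strand, and GCGTG, which then reads CACGC.
Car9: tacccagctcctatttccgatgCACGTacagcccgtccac
Slc16a3: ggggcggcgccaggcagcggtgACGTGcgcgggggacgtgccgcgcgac
Adm: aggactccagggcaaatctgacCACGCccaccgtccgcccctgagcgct
Egln3: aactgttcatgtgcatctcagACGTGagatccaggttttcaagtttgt
P4ha1: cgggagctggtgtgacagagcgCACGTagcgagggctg
Bnip3: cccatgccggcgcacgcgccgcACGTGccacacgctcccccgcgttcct
Pfkfb4: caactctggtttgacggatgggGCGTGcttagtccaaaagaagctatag

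These windows lay at chr4:43506986-43507025 (Car9, + strand), chr11:120949018-120949066 (Slc16a3, +), chr7:110627581-110627629 (Adm, +), chr12:54204077-54204124 (Egln3, −), chr10:59323258-59323295 (P4ha1, +), chr7:138909587-138909635 (Bnip3, −) and chr9:108991763-108991811 (Pfkfb4, +). Either motif, on either strand, was present in 35 of the 43 promoters of members and in 43.8% of all 32851 promoters of that length. ACGTG alone was in 23 of the 43 and in 19.6% of all, and GCGTG in 26 and in 32.4%. CACGTG, which contains ACGTG, was in 5 and in 7.15%. By gene, 28 of the 31 members had a match in at least 1 promoter; Gpi1, Tpi1 and Eno2 had none in these windows. A match is a description of the letters and not a binding site.

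In none of the comparisons did a member pass the threshold. The edgeR quasi-likelihood F test, Benjamini-Hochberg adjusted over 15041 genes, called 0 of 34 members in BKO against its controls, where it called 0% of all genes, and 0 in EKO against its controls, where it called 0.00665%. It also called 0 members in the difference between these effects (0% of all genes) and 0 in the EKO controls against the BKO controls (0.00665%). DESeq2 and limma-voom called 0 members in each comparison too, while DESeq2 called 0.0598%, 0.572%, 0.0399% and 1.45% of all genes in the same order. At an unadjusted p under 0.05 edgeR had 0 members in BKO, 2 in EKO, 1 in the difference and 3 between the controls, against 0.977%, 3.7%, 1.01% and 5.54% of all genes. The 0 in BKO rests on a spread shared by all 8 libraries. In a fit of the 4 BKO-model libraries alone, edgeR had 3 members at such a p, Pfkp, Eno3 and Ndrg1. Of the 14783 genes tested there 511 had such a p, and 0 members were called. The members' values are given as levels, with their spread.

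**Figure D1:**
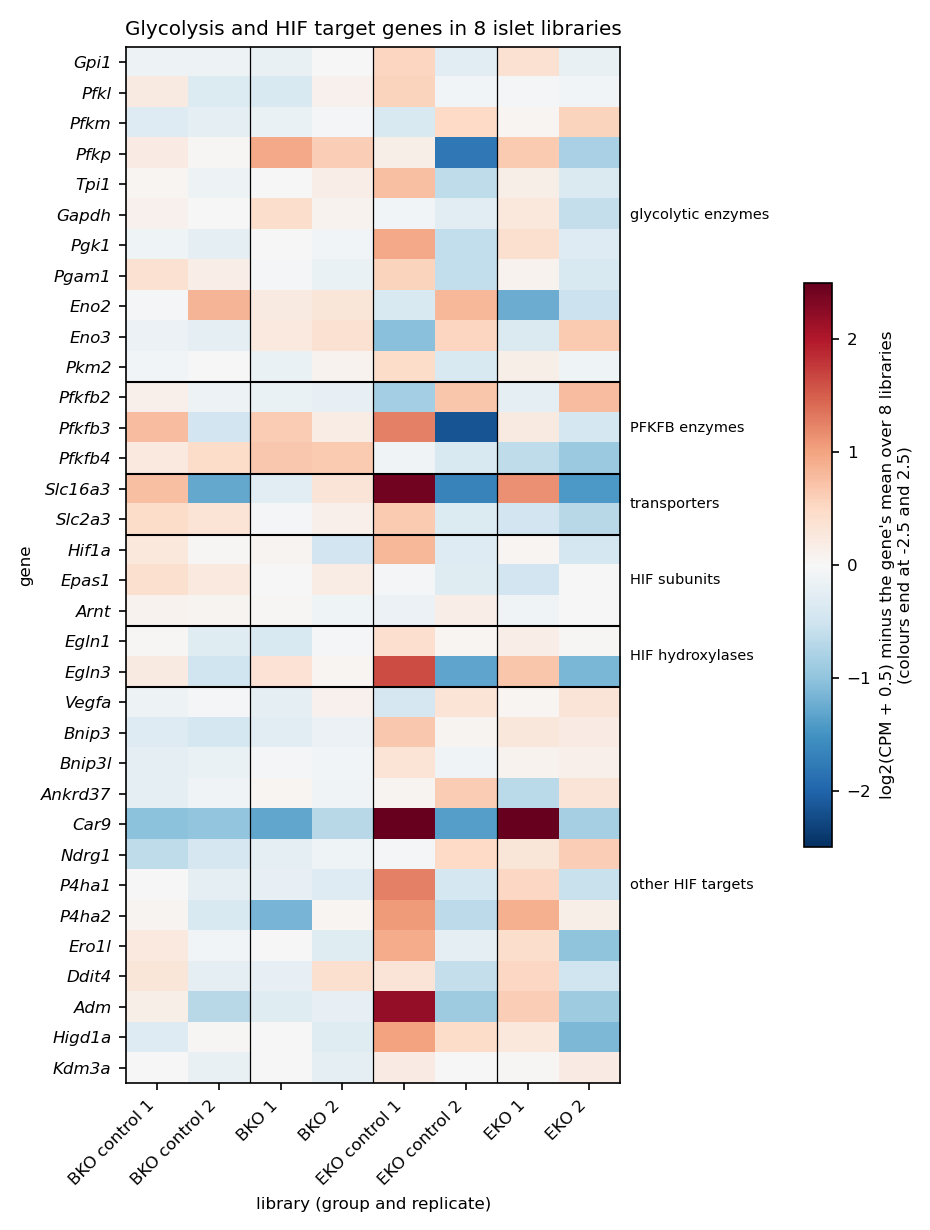
Level of the 34 tested genes (rows, grouped by role) in the 8 libraries (columns), as log2(CPM + 0.5) minus the gene's mean over the libraries; red is above and blue below that mean. EKO control replicate 1 was the highest library for 21 of the 34 genes, most visibly for Car9, Slc16a3, Adm and Egln3.

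Phosphofructokinase, which commits sugar to glycolysis, has a liver (Pfkl), a muscle (Pfkm) and a platelet (Pfkp) form. Pfkp was at 158 and 139 CPM in BKO control and 263 and 210 in BKO islets, and at 150 and 39.0 in EKO control and 216 and 77.8 in EKO islets. Both BKO libraries were above both of their controls, while the EKO groups overlapped. The log2 fold change of Pfkp was 0.67 ± 0.68 (SE, n = 2 per group) in BKO and 0.63 ± 0.68 in EKO. Pfkm was at 47.8 and 51.3 CPM in control islets of the BKO model and 53.1 and 58.8 in BKO islets, and at 45.9 and 85.1 in control islets of the EKO model and 61.7 and 87.6 in EKO islets. Its BKO libraries were above their controls by 0.18 ± 0.31 on the log2 scale, less than the error, and its EKO groups overlapped. Pfkl was at 101 and 68.2 CPM in BKO control and 66.2 and 92.9 in BKO islets, and at 127 and 82.7 in EKO control and 84.4 and 82.3 in EKO islets, with overlap in both models. Per kilobase of exon, the median level over the 8 libraries was 34.3 CPM for Pfkp, 21.9 for Pfkl and 16.8 for Pfkm. Their ranges of 8.70 to 58.5, 17.4 to 33.4 and 13.7 to 26.2 CPM per kilobase overlapped, so the order was not fixed across libraries.

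Enolase makes phosphoenolpyruvate, and its forms are Eno1 (widespread), Eno2 (neuronal and endocrine) and Eno3 (muscle). Eno2 was at 77.2 and 143 CPM in control islets of the BKO model and 92.6 and 97.9 in BKO islets, and at 61.2 and 142 in control islets of the EKO model and 33.2 and 54.3 in EKO islets. Both EKO libraries were thus below both of their controls, while the BKO libraries lay between theirs. In the EKO controls the replicates of Eno2 were further apart than the lower control was from the higher EKO library. Eno3 was at 12.8 and 12 CPM in BKO control and 17.0 and 18.8 in BKO islets, and at 6.71 and 21 in EKO control and 11 and 22.7 in EKO islets. Its BKO libraries were above their controls (0.53 ± 0.56 on the log2 scale), and its EKO groups overlapped, with replicate 2 well above replicate 1 in each. Per kilobase, Eno2 had a median of 25.2 CPM and Eno3 of 8.83, and Eno2 was above Eno3 in every library, most narrowly in EKO replicates 1 and 2, at 9.87 and 16.1 against 6.51 and 13.4. Eno1 had 2 reads in BKO control replicate 2, 1 in BKO replicate 2 and 0 in the other 6 libraries, where 3 reads, the limit that a count of 0 allows, come to between 0.0657 and 0.140 CPM.

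Some members have near-identical copies elsewhere in the genome. Reads that align to more than 1 place were not counted to genes and made up 31.6% to 39.7% of each library; how many of them belong to a given gene was not measured. In GENCODE M21 transcripts, 68% of the 50-base words of Pgk1 also occurred at another locus, as did 58.4% for Gapdh, 49.5% for Eno1, 46.3% for Bnip3 and 41.5% for Pgam1. For Gapdh these were 222 other loci, 213 of them pseudogenes, and for Eno1 a single locus, Eno1b, shared 48.4% of the words. Gapdh was counted at 1.31 to 3.23 CPM, Pgk1 at 5.39 to 17.0 and Pgam1 at 4.28 to 10.2, against 351 to 628 CPM for Pkm2, pyruvate kinase, of whose words 18.4% were shared. Bnip3 was at 22.7 to 49.7 CPM, and Eno1, with 49.5% of its words shared, had 3 reads in all. The levels of these 5 genes are reported as uncertain, and the part of shared sequence in them was not tested. By contrast 25 of the 35 members had under 1% of shared words, and 20 had none.

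**Figure D2:**
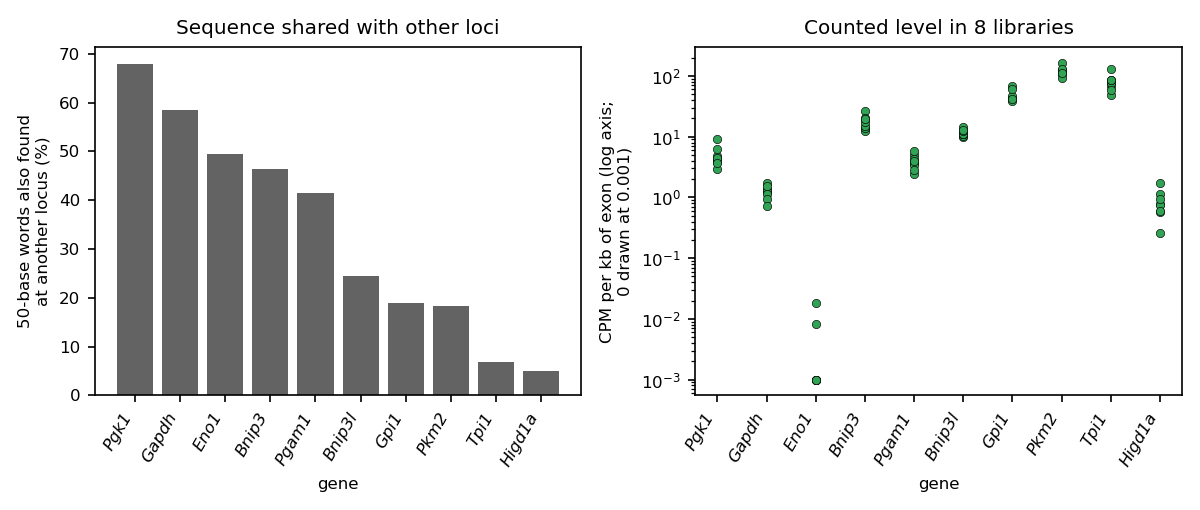
Left, the share of each gene's 50-base words that also occur at another locus (percent, bars from 0), for the 10 genes above 1%; right, the counted level of the same genes per kilobase of exon on a log axis, 1 point per library. Gapdh, Pgk1 and Pgam1, with 41.5% to 68% of words shared, were below 10 CPM per kilobase in every library, while Bnip3, with 46.3% shared, was at 12.2 to 26.8.

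Of the remaining step enzymes, Gpi1, glucose-6-phosphate isomerase, ran from 110 to 194 CPM and Tpi1, triose phosphate isomerase, from 86.3 to 225, each highest in EKO control replicate 1. Pgk1, phosphoglycerate kinase, was at 8.64 and 8.18 CPM in BKO, above both controls (7.92 and 7.09), and Pgam1, phosphoglycerate mutase, was at 6.64 and 6.02 CPM, below both (8.93 and 7.66). Over the 11 enzymes tested, 7 had a log2 fold change above 0 in BKO, with a median of 0.12, and 4 did in EKO, with a median of -0.07.

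The PFKFB enzymes make and break fructose 2,6-bisphosphate, the strongest known activator of phosphofructokinase. Pfkfb4 was at 15.0 and 17.6 CPM in control islets of the BKO model and 20.4 and 20.1 in BKO islets, and at 11.9 and 9.62 in control islets of the EKO model and 8.01 and 6.46 in EKO islets. The 4 groups did not overlap anywhere: EKO was lowest, then its controls, then the BKO controls, then BKO. Pfkfb3 was at 98.3 and 40.7 CPM in BKO control and 88.4 and 64.9 in BKO islets, and at 138 and 12.4 in EKO control and 66.8 and 42.0 in EKO islets. Its replicates differed by more than the group means did, and the groups overlapped in both models. Pfkfb2 was at 220 and 185 CPM in control islets of the BKO model and 180 and 174 in BKO islets, and at 111 and 328 in control islets of the EKO model and 171 and 344 in EKO islets. In BKO it was below both controls by 0.20 ± 0.53 on the log2 scale, and in the EKO model replicate 2 was above replicate 1 in each group. The median levels per kilobase were 36.3 CPM for Pfkfb2, 11.9 for Pfkfb3 and 3.85 for Pfkfb4. Pfkfb2 was above Pfkfb4 per kilobase in every library, but EKO control replicate 1 had more Pfkfb3 (25.1) than Pfkfb2 (22.1) and EKO control replicate 2 had less Pfkfb3 (2.25) than Pfkfb4 (2.76).

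Slc2a3 encodes a glucose transporter with high affinity and Slc16a3 a lactate exporter. Slc2a3 was at 5.36 and 4.92 CPM in BKO control and 3.64 and 4.16 in BKO islets, and at 6.25 and 2.88 in EKO control and 2.58 and 2.15 in EKO islets. Both deleted groups lay below their controls, in the EKO model by a narrow gap from control replicate 2. Slc16a3 was at 9.70 and 1.97 CPM in control islets of the BKO model and 4.55 and 7.08 in BKO islets, and at 31.8 and 1.39 in control islets of the EKO model and 12.8 and 1.73 in EKO islets, so that within each model replicates differed more than group means did.

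Of the subunits of HIF, Hif1a was at 193 and 165 CPM in BKO control and 171 and 116 in BKO islets, and at 287 and 130 in EKO control and 167 and 120 in EKO islets. The groups overlapped in both models, and EKO control replicate 1 was above all other libraries. Epas1, which encodes HIF2A, was at 32.3 and 29.3 CPM in control islets of the BKO model and 24.2 and 28.1 in BKO islets, and at 24.1 and 19.7 in control islets of the EKO model and 17.5 and 24.3 in EKO islets. Arnt, the shared partner, was at 79.2 and 78.5 CPM in BKO control and 76.2 and 68.8 in BKO islets, and at 66.9 and 83.1 in EKO control and 70.1 and 74.8 in EKO islets. Epas1 and Arnt lay below both controls in both BKO libraries, and overlapped in EKO. Arnt was the steadiest of the 34 tested members, its highest library only 1.24 times its lowest, where the median member had a ratio of 2.65. Per kilobase, Hif1a (median 30.5 CPM) was above Arnt (15.6), and Arnt above Epas1 (4.40), in every library.

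The Egln hydroxylases turn HIF off and are themselves HIF targets. Egln1 was at 52.9 and 41.6 CPM in control islets of the BKO model and 39.5 and 50.6 in BKO islets, and at 69.7 and 53.7 in control islets of the EKO model and 58.0 and 52.9 in EKO islets. Egln3 was at 2.82 and 1.53 CPM in BKO control and 3.15 and 2.43 in BKO islets, and at 8.27 and 0.651 in EKO control and 4.11 and 0.796 in EKO islets. Both genes overlapped between deleted and control libraries in both models, and Egln3 differed more between EKO-model replicates than between group means.

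Islet endocrine cells make Vegfa to draw in blood vessels. Counted levels are uncertain for the genes that share much sequence with other loci. With that limit, Vegfa had the highest counted level per kilobase of the 35 genes at the median over libraries, 197 CPM. It was at 632 and 673 CPM in control islets of the BKO model and 592 and 742 in BKO islets, and at 517 and 877 in control islets of the EKO model and 713 and 858 in EKO islets, with overlap in both models. Markers of endothelial cells, the cells that answer to Vegfa, summed to 469 to 744 CPM over 11 genes across the 8 libraries; their part in the level of Vegfa was not tested.

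Car9, a carbonic anhydrase of the cell surface and a classical HIF target, was counted with 12 and 11 reads in BKO control and 5 and 19 in BKO islets, and with 434 and 2 in EKO control and 208 and 8 in EKO islets. In CPM these were 0.263 and 0.285, 0.127 and 0.457, 17.9 and 0.0929, and 9.11 and 0.375. Only the EKO-model libraries numbered 1 were above 0.5 CPM. Adm, the peptide hormone adrenomedullin, was at 0.897 and 0.285 CPM in BKO control and 0.534 and 0.602 in BKO islets, and at 5.35 and 0.186 in EKO control and 1.44 and 0.187 in EKO islets. It was again highest in those libraries. P4ha1 and P4ha2, subunits of the prolyl hydroxylase that matures collagen, reached 249 and 66.2 CPM in EKO control replicate 1 and 149 and 59.1 in EKO replicate 1, against 70.8 to 103 and 13.9 to 34.8 in the other 6 libraries. Ero1l, an oxidase of the endoplasmic reticulum, was at 209 and 148 CPM in these 2 libraries and at 54.2 to 129 elsewhere.

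For 12 of the 34 members the EKO-model libraries numbered 1 were the 2 highest of the 8, which held for 14.7% of all genes tested. These were Gpi1, Pgk1, Pkm2, Slc16a3, Egln1, Egln3, Bnip3, Car9, P4ha1, P4ha2, Ero1l and Adm. In the EKO model both libraries numbered 1 were above both numbered 2 for 20 members, against 30.5% of all genes, and below them for 7, against 28.4%; the 7 were Pfkm, Eno3, Pfkfb2, Arnt, Vegfa, Ankrd37 and Ndrg1. EKO control replicate 1 alone was the highest library for 21 members, against 19.8% of all genes. The fold between replicates had a median over members of 1.91 in the EKO controls and 1.53 in EKO, where over all genes it was 1.38 and 1.29. In the BKO controls and BKO it was 1.15 and 1.15 for members and 1.16 and 1.20 for all genes. These folds took in only genes with more than 3 reads in both replicates of the group. Among those members the widest was 28.8-fold, for Adm in the EKO controls. Car9 was left out there, its 434 and 2 reads (17.9 and 0.0929 CPM) lying further apart. Besides the acinar and stellate markers given above, 13 immediate early and heat shock genes were summed. They came to 1713 and 1979 CPM in the EKO-model libraries numbered 1 and to 264 to 726 CPM in the other 6. The heat shock genes did not all follow that sum. In those 2 libraries Egr1 was at 560 and 648 CPM and Hspa1a at 9.96 and 1.44. Hspa1a was highest in BKO control replicate 1, at 23.8 CPM. Hspb1 was highest in the EKO-model libraries numbered 1, at 4.57 and 2.93 CPM. The 9 immune markers summed to 629 CPM in EKO control replicate 1 and to 126 to 382 elsewhere. The 10 beta cell markers summed to 168030 to 307860 CPM over the 8 libraries, lowest in EKO control replicate 1. Ins1, Ins2 and Iapp weighed most in that sum. Between EKO control replicates 1 and 2 Iapp was at 32365 and 36322 CPM, Slc30a8 at 127 and 1054, and Slc2a2 at 58.6 and 464. Of the 16 acinar markers Amy2a5 was at 0 in all libraries; the part of these cells or of handling in the members' levels was not tested.

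**Figure D3:**
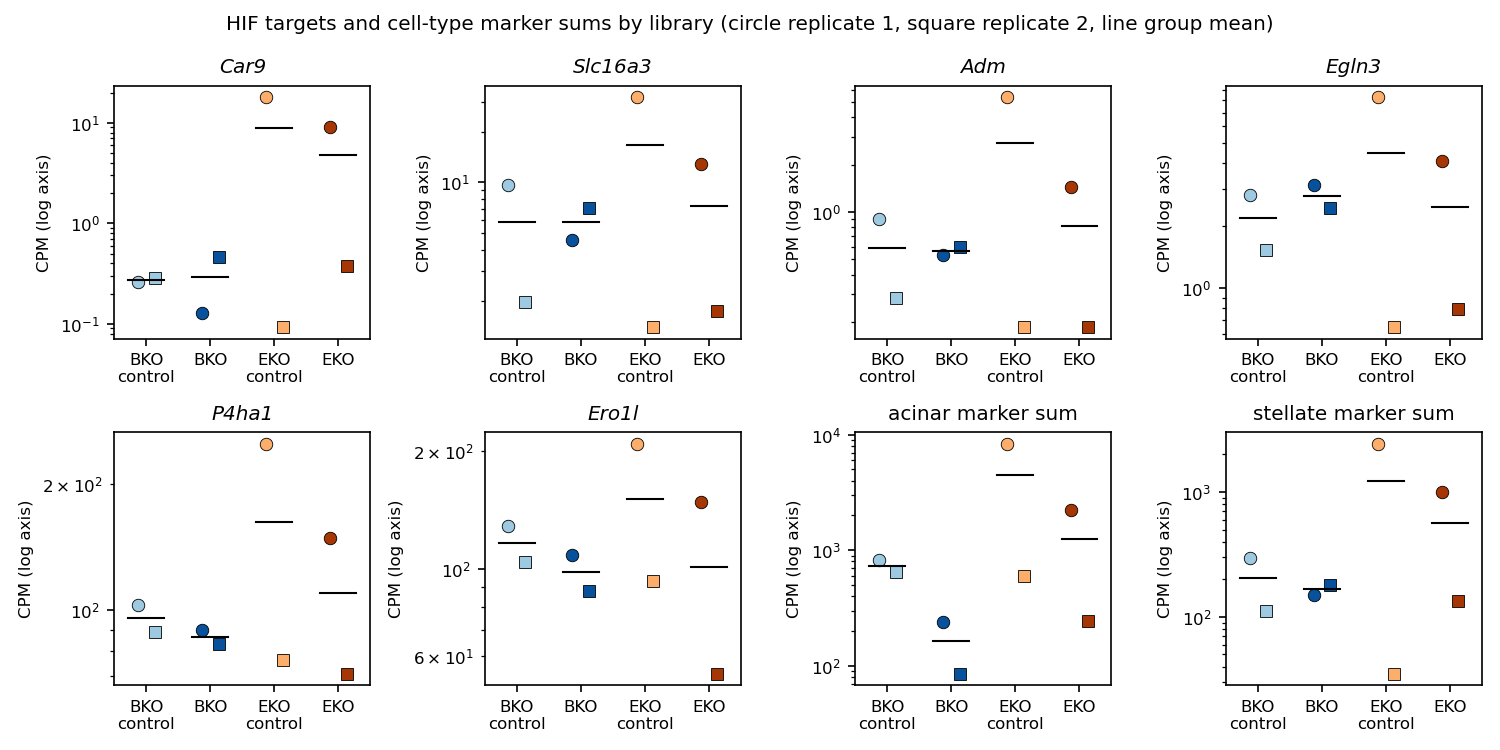
CPM on log axes for 6 HIF-responsive genes and for the sums of the acinar and stellate markers; circles are replicate 1, squares replicate 2 and lines group means (n = 2). The EKO-model libraries numbered 1 are the 2 highest in every panel, with Car9 at 17.9 and 9.11 CPM there and under 0.5 CPM in the other 6 libraries.

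Bnip3 and Bnip3l, receptors for the removal of mitochondria, differed less. Bnip3 was at 24.7 and 22.7 CPM in control islets of the BKO model and 25.3 and 27.9 in BKO islets, and at 49.7 and 32.9 in control islets of the EKO model and 37.8 and 36.0 in EKO islets. Both BKO libraries were above both controls for each of the 2 genes, Bnip3l being at 36.9 and 36.0 against 32.1 and 33.7 CPM. Ndrg1, a HIF-induced gene linked to growth arrest and differentiation, was at 159 and 184 CPM in BKO control and 211 and 229 in BKO islets, and at 242 and 349 in EKO control and 306 and 381 in EKO islets. All 4 EKO-model libraries were above all 4 BKO-model libraries for 2 members, Bnip3 and Ndrg1, against 4.75% of all genes, and below them for 1, Pfkfb4, against 6.15%. Higd1a, a small protein of the mitochondrial inner membrane, was low, at 1.77 and 2.38 CPM in control islets of the BKO model and 2.31 and 1.81 in BKO islets, and at 5.18 and 3.39 in control islets of the EKO model and 2.89 and 0.796 in EKO islets. Ankrd37 was at 4.64 and 5.20 CPM in BKO control and 5.69 and 5.18 in BKO islets, and at 5.84 and 8.83 in EKO control and 3.28 and 7.02 in EKO islets. Ddit4, an inhibitor of mTORC1, ran from 57.7 to 125 CPM and Kdm3a, a histone demethylase, from 50.3 to 69.0 CPM, each with overlap of deleted and control libraries in both models.

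**Figure D4:**
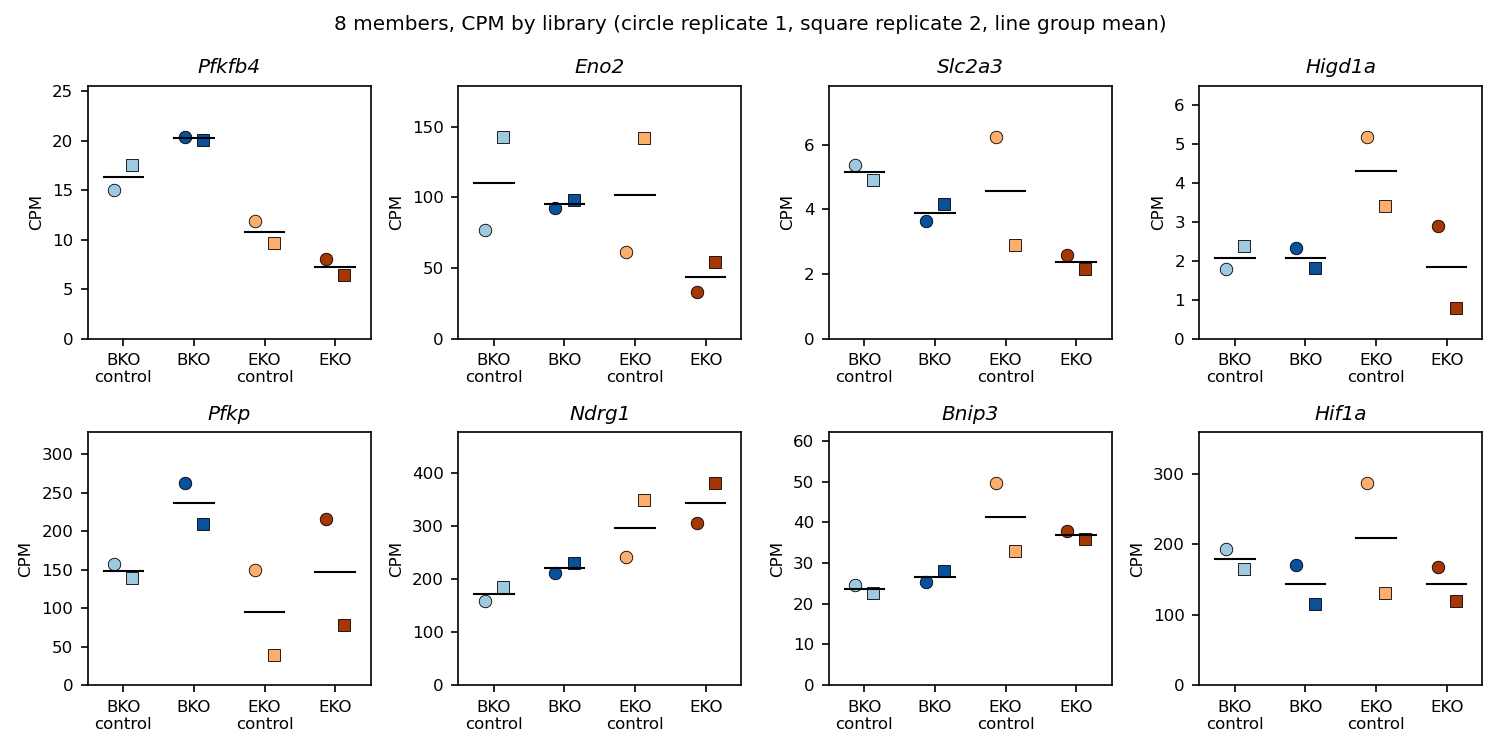
CPM by library for 8 of the genes, on axes that start at 0; circles are replicate 1, squares replicate 2 and lines group means (n = 2). The BKO libraries of Pfkfb4 (20.4 and 20.1) are above their controls and the EKO libraries (8.01 and 6.46) below theirs, and Ndrg1 and Bnip3 are higher in the EKO model in all libraries.

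In BKO islets, after deletion in adult beta cells, as many of the genes had higher as had lower values than in the controls, a balance that shifted upward once the acinar level entered the fit. Of the 34 tested members 17 had a log2 fold change above 0 in BKO against its controls, where 51.1% of all genes did, and their median was 0.01, as was that over all genes. Both BKO libraries were above both controls for 8 members (Pfkm, Pfkp, Pgk1, Eno3, Pfkfb4, Bnip3, Bnip3l and Ndrg1), against 16.3% of all genes, and below for 5 (Pgam1, Pfkfb2, Slc2a3, Epas1 and Arnt), against 13.8%. The smallest p-values belonged to Ndrg1 (log2 fold change 0.36 ± 0.22), Pfkfb4 (0.32 ± 0.23), Epas1 (-0.24 ± 0.23), Pfkp (0.67 ± 0.68) and Eno3 (0.53 ± 0.56). The unadjusted p of Ndrg1 was 0.156, and the edgeR quasi-likelihood F test (Benjamini-Hochberg) gave an adjusted p of 1 for every member. Of the genes of HIF signalling, Hif1a was at -0.32 ± 0.40, Arnt at -0.12 ± 0.15, Egln1 at -0.07 ± 0.21, Egln3 at 0.36 ± 1.18 and Vegfa at 0.03 ± 0.28. The sum of acinar markers was 821 and 647 CPM for the controls and 241 and 85.9 for BKO, with no overlap. Once the mean level of the acinar markers entered the fit as a covariate, 26 of the 34 members were above 0, with a median of 0.34 where that of all genes was 0.02, and 0 members were called. The log2 fold change then turned to -0.27 for Eno3, 0.21 for Hif1a, 0.05 for Egln1 and -0.33 for Vegfa, and it was 1.72 for Pfkp and 2.24 for Egln3, with adjusted p of 0.521 and 0.587 in the edgeR quasi-likelihood F test (Benjamini-Hochberg). With the stellate level as the covariate instead, the members' median was 0.03 and 18 of 34 were above 0. With the endothelial level it was 0.06 and 21 were above 0. The values of Egln1, Vegfa and Egln3 also changed sign without single libraries: Egln1 ran from -0.26 (without BKO replicate 2) to 0.12 (without BKO control replicate 1), Vegfa from -0.14 (without BKO replicate 2) to 0.19 (without BKO replicate 1), and Egln3 was -0.01 without BKO control replicate 2.

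In EKO islets, after deletion in the endocrine lineage, 24 of the 34 genes had lower values than in the controls, none past the threshold. In EKO against its controls 10 of the 34 members had a log2 fold change above 0, where 48.6% of all genes did, and the median was -0.21 against -0.01 over all genes. Both EKO libraries were below both controls for 4 members, Eno2, Pfkfb4, Slc2a3 and Higd1a, against 9.57% of all genes, and above for 0, against 12.5%. Eno2 was lower by a log2 fold change of -1.21 ± 0.48 (unadjusted p = 0.0424) and Pfkfb4 by -0.57 ± 0.23 (unadjusted p = 0.0472). These were the 2 members with an unadjusted p under 0.05 in the edgeR model of all genes, where 1.58% of all genes had such a p and were lower. Slc2a3 was at -0.95 ± 0.45, Higd1a at -1.22 ± 0.66 and Hif1a at -0.54 ± 0.40. The adjusted p in the edgeR quasi-likelihood F test (Benjamini-Hochberg) was 1 for all of them. Of 8 alpha cell markers 7 were also lower in EKO than in its controls, with a median log2 fold change of -0.85. In BKO 6 of the 8 were lower, with a median of -0.04. The 10 beta cell markers had a median of -0.09 in EKO, 6 being lower. The part of alpha cells in the members' levels was not tested.

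Among the other genes of HIF signalling in EKO, Epas1 was at -0.06 ± 0.23, Arnt at -0.05 ± 0.15, Egln1 at -0.15 ± 0.21, Egln3 at -0.86 ± 1.19 and Vegfa at 0.17 ± 0.28 on the log2 scale. The direction of most of these changed without EKO control replicate 1, and that of the list changed without this library and with the acinar level as a covariate. Without the library the median of the members was 0.12 and 22 were above 0, and Hif1a was at 0.10, Epas1 at 0.06, Egln1 at 0.01, Egln3 at 1.88 and Vegfa at -0.19. Without EKO control replicate 2, Arnt was at 0.12, and without EKO replicate 1 Epas1 was at 0.16. Without both EKO-model libraries numbered 1, which leaves 1 library in each EKO-model group, the median was 0.10, Egln3 was at 0.28, Epas1 at 0.30 and Vegfa at -0.04. With the acinar covariate the median was 0.05 and 19 members were above 0, where all genes had a median of 0.03, and Egln3 was at 0.93 and Vegfa at -0.04. With the endothelial level as a covariate the median was -0.03 and 16 members were above 0. With the stellate level as a covariate the median kept its direction, at -0.21 with 9 members above 0. Eno2, Pfkfb4, Slc2a3 and Higd1a were below 0 in each of these fits and in every fit without a single library. These genes were picked because both EKO libraries were below both controls. Leaving libraries out could therefore hardly turn their sign, and this is no separate support. The log2 fold changes of these genes were -1.39, -0.58, -0.43 and -2.09 without both EKO-model libraries numbered 1. With the acinar covariate they were -1.57, -0.44, -0.57 and -0.89. Eno2 was at -0.48 without EKO control replicate 2 and at -1.73 without EKO control replicate 1, and Slc2a3 at -0.32 without EKO control replicate 1. Higd1a was at -2.42 without EKO replicate 1 and at -0.57 without EKO replicate 2.

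**Figure D5:**
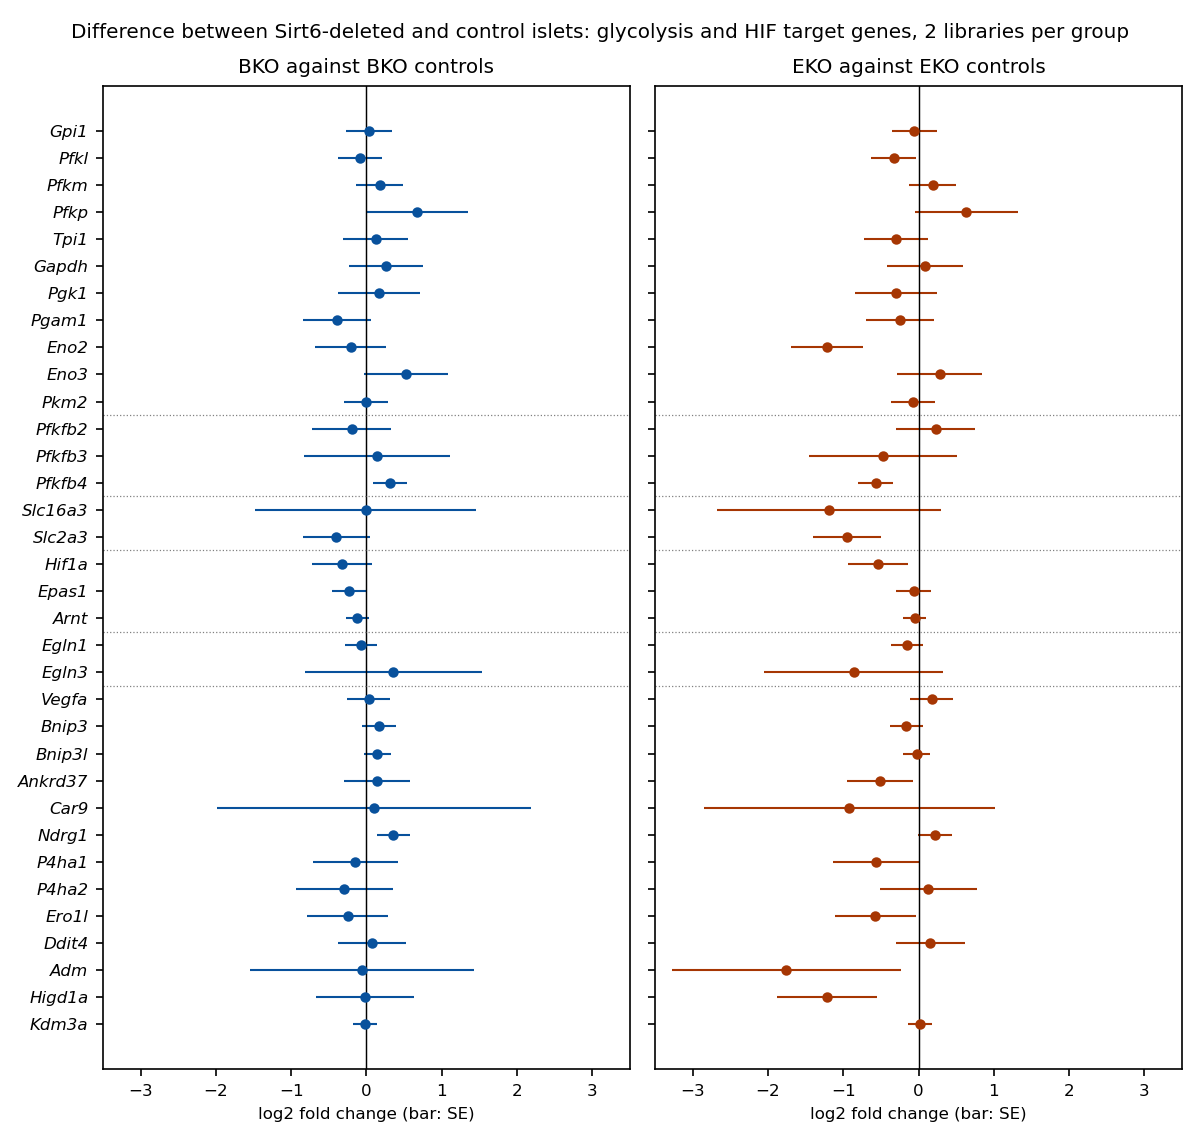
Log2 fold change (points) with its SE (bars) of the 34 tested genes in BKO (left) and EKO (right) against their own controls, 2 libraries per group. The SE comes from the fit of all 8 libraries. Most bars cross 0 in BKO, where the median is 0.01, and in EKO, where it is -0.21. Eno2 (-1.21) and Pfkfb4 (-0.57) are clear of 0 by more than their SE in EKO. So are others, among them Slc2a3 (-0.95), Higd1a (-1.22) and Hif1a (-0.54). In BKO, Ndrg1 (0.36), Pfkfb4 (0.32) and Epas1 (-0.24) are.

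The effects in the 2 models were set against each other in the same fit. Pfkfb4 was the member with the smallest p for the difference, its log2 fold change in EKO minus that in BKO being -0.88 ± 0.33 (unadjusted p = 0.0327, and 1 after Benjamini-Hochberg adjustment of the edgeR quasi-likelihood F test). It was the only member with both BKO libraries above and both EKO libraries below their controls, which held for 0.691% of all genes. Eno2 followed at -1.01 ± 0.67, then Higd1a at -1.20 ± 0.93, Bnip3 at -0.33 ± 0.31 and Ankrd37 at -0.65 ± 0.62. The median difference over the 34 members was -0.23, and 9 members were above 0 against 48.8% of all genes; without EKO control replicate 1 the median was 0.20, and without both EKO-model libraries numbered 1 it was 0.05.

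The controls of the 2 models differ in their Cre driver and in depth, and BKO control replicate 1 is Sirt6 f/+ where the EKO controls are +/+. Neither their tamoxifen treatment nor a sequencing batch is given, so the model and a batch cannot be told apart. In the EKO controls 13 of 13 acinar, 11 of 11 endothelial, 7 of 8 alpha and 6 of 10 beta cell markers were higher. Their median log2 fold changes were 2.64, 0.27, 0.74 and 0.12. EKO control replicate 2 was at 595 CPM of acinar markers, below both BKO controls. The part of genotype or of these cells in the members' levels was not tested. In the EKO controls against the BKO controls 25 of 34 members had a log2 fold change above 0, where 55.1% of all genes did, with a median of 0.28 against 0.04. Bnip3, 46.3% of whose words are shared with other loci, was higher by 0.80 ± 0.22 and Ndrg1 by 0.78 ± 0.23, and Pfkfb4 was lower, at -0.60 ± 0.23. In the edgeR quasi-likelihood F test (Benjamini-Hochberg) the adjusted p was 0.620 for Bnip3, 0.627 for Ndrg1 and 0.871 for Pfkfb4. Both EKO controls were above both BKO controls for 7 members (Egln1, Bnip3, Bnip3l, Ankrd37, Ndrg1, Higd1a and Kdm3a), against 14.4% of all genes, and below for 3 (Gapdh, Pfkfb4 and Epas1), against 15.5%. Epas1 was at -0.49 ± 0.23. Car9 had a log2 fold change of 5.02 ± 2.30 that came from EKO control replicate 1, and without that library it was -1.52; with the acinar covariate it was 0.31. The median of the members was -0.06 with the acinar covariate and -0.34 without the same library, and Bnip3, Ndrg1 and Pfkfb4 were then at 0.47, 1.03 and -0.76. Without EKO control replicate 2 they were at 1.06, 0.49 and -0.46.

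No other gene listed for these pathways passed the threshold in any comparison. Of 20 further tested genes of glycolysis and glucose entry, 7 were above 0 in BKO and 10 in EKO, with median log2 fold changes of -0.05 and -0.03. Of 13 regulators of HIF, 4 and 7 were above 0, with medians of -0.11 and 0.02, and of 28 further HIF targets 13 and 11, with medians of -0.01 and -0.09. Tfrc, the transferrin receptor, was at an unadjusted p under 0.05 in both models, and is named after its values were seen. Tfrc was at 187 and 139 CPM in BKO control and 89.8 and 102 in BKO islets, and at 242 and 208 in EKO control and 114 and 83.0 in EKO islets, below both controls in each model.

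The authors' deposited tables of their own comparisons list 99 genes for BKO and 243 for EKO. The authors' deposited table for BKO holds 0 of the 35 members, and that for EKO holds Eno2, with a log2 fold change of -0.70 (SE 0.32), a p-value of 0.0279 and an adjusted p of 1.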

How the data were processed

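RNA-seq of 8 islet libraries was used. The authors deposited raw counts, whole reads per gene symbol; per the submitters' processing notes TopHat, HTSeq and build mm9 were used, with versions, and strand use in counting, not given in the sources used here. A stranded poly(A) kit and about 100 ng of total RNA were used, per the labels' protocols. The authors also deposited, per the file headers, tables of log2 fold changes, p-values and adjusted p-values; what selected their genes is not stated, and they entered no test.

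The tests on counts used edgeR 4.0.16 under R 4.3.3 (quasi-likelihood F test, TMM, filterByExpr with a count minimum of 10), with all 8 libraries in 1 fit of 4 groups, no covariates, 4 residual degrees of freedom and Benjamini-Hochberg adjustment over 15041 genes at 0.05. The common biological coefficient of variation was 0.431, which limits what 2 libraries per group can show. Rows that name no gene stayed out of library sizes. DESeq2 1.42.0 and limma 3.58.1 (voom) were alternatives. The code was tested on simulated data. Intervals from reads cover counting error only.

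The members and lists were chosen with earlier results of these data known. Values in every library are given for the HIF subunits, Egln genes, Vegfa, the phosphofructokinase, enolase and PFKFB families, and the 5 members with the smallest p in each comparison; other members are given by range, and Slc16a3, Adm and reads of Car9 were added after their values were seen. Values of a further pathway gene are not reported here. GENCODE M21 and RefSeq (GRCm38.p6) gave exon lengths, shared words and promoters; no coordinates were converted from mm9.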

Additional observations from a re-analysis of the deposited data

Results flagged for a closer look

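Pfkfb4 stood out because every library moved one way in one model and the opposite way in the other: both BKO libraries were above and both EKO libraries below their controls, and the log2 fold change in EKO minus that in BKO was -0.885. The difference itself was tested in edgeR's quasi-likelihood model, with an unadjusted p of 0.0327 and a Benjamini-Hochberg adjusted p of 1 (0.982 to 1 over the alternatives). Over the alternatives the difference stayed between -1.05 and -0.74. Pfkfb4 was flagged by this same ordering of its libraries, so leaving out single libraries could hardly turn the difference. The p-value rests on the same values, and neither is separate support.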

How the results depend on the processing

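Of 873 values recomputed under 21 alternatives, 3 of them chosen after seeing the data, 826 kept their direction and their side of the threshold or moved by less than the replicate spread, 22 moved further and 25 turned. For the members' medians that spread was 0.422, more than the size of any median in the main fit. A median that changed sign could thus count among the 826, and only values of single genes were counted as turned. No member was called in any alternative; the smallest adjusted p of a named member was 0.0639, for Car9 between the controls in edgeR (highest over the alternatives 1). DESeq2 called 9 genes in BKO, 86 in EKO, 6 in the difference and 218 between the controls. In EKO the count of genes was 0 with the 4 libraries of the model alone, 2 without the EKO-model libraries numbered 1, 3 with the stellate level as a covariate and 1 to 2 without single libraries. Between the controls it was 7 with no filter, 6 with the acinar level as a covariate, 0 with the endothelial level, 0 with the 4 control libraries alone, 62 without the EKO-model libraries numbered 1, 64 with the stellate level and 0 to 5 without single libraries. The members' median between the controls was -0.35 without the EKO-model libraries numbered 1 and -0.34 to 0.51 without single libraries; that of the difference was -0.43 to 0.20. With the acinar level the median was 0.34 in BKO (26 of 34 above 0), 0.05 in EKO (19 of 34) and -0.06 between the controls (14 of 34); with the endothelial level it was -0.03 in EKO (16 of 34). With the stellate level it was 0.03 in BKO (18 of 34), -0.21 in EKO (9 of 34) and 0.19 between the controls (22 of 34).

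Values that turned were, with the acinar level, -0.27 (Eno3), 0.21 (Hif1a), 0.047 (Egln1) and -0.33 (Vegfa) in BKO and 0.93 (Egln3) and -0.043 (Vegfa) in EKO; with the endothelial level 0.029 (Epas1, EKO); with the stellate level 0.0028 (Arnt, EKO); and without the EKO-model libraries numbered 1, 0.30 (Epas1), 0.28 (Egln3) and -0.038 (Vegfa) in EKO and -1.53 (Car9) between the controls. The causes were not tested. Without single libraries the BKO values ran from -0.26 to 0.12 (Egln1), -0.14 to 0.19 (Vegfa) and -0.015 to 0.87 (Egln3). The EKO values ran from -0.996 to 0.10 (Hif1a), -0.32 to 0.16 (Epas1), -0.33 to 0.012 (Egln1), -2.48 to 1.88 (Egln3), -0.19 to 0.61 (Vegfa) and -0.23 to 0.12 (Arnt), and Car9 between the controls from -1.52 to 6.01.

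With the replicate number as a block, the members' median was 0.10 in BKO and -0.15 in EKO, 0 members were called, and 2 genes were called between the controls. Between deleted and control libraries of the same number, deviations from the group means correlated at 0.24 in the BKO model and 0.587 in the EKO model. Across the models the correlations ran from -0.18 to 0.38. The main fit did not take the numbers as pairs, so a pairing within a model was left out of it. A block within the EKO model alone, whose numbers correlated at 0.587, called 64 genes between the controls and 0 members.

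The median fold between replicates was 1.91 over members in the EKO controls and 1.15 in the BKO controls, with 2 libraries per group. Levels of genes that share sequence with other loci (Gapdh, Pgk1, Eno1, Bnip3, Pgam1) are uncertain, and Eno1, Adm, Car9 and Higd1a rested on few reads.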
